A study of Mus musculus with 9 samples.

Results

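Sox2 occupancy around 10 genes of the desmosome was described in mouse lung epithelial cells: the desmosomal cadherin genes Dsg1a, Dsg2, Dsg3, Dsc1, Dsc2 and Dsc3, the plaque genes Dsp, Jup and Pkp1, and Perp. The genes were taken by name, out of 21887 protein-coding genes used, and a binding summit was assigned to a gene when it lay inside the gene's span or within 50 kb of it. Sox2 chromatin immunoprecipitation and sequencing (ChIP-seq) was done in C57BL/6 cells, labelled as 8 weeks of age, in 3 groups of 1 library each: wildtype cells, cells with ectopic Sox2 expression, and cells with both ectopic Sox2 expression and Nkx2-1 deletion. The labels name neither the transgene's promoter nor the Cre or other agent used for the deletion, and peak lists carry no expression, so neither the genotype nor the epithelial identity of the cells was checked. The input and IgG libraries of each group were not analysed here. Each group has a single library, so the groups are compared without replicates and without p-values.

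Desmosomes are adhesive junctions that tie the keratin filaments of neighbouring epithelial cells together. Desmogleins (Dsg) and desmocollins (Dsc) are cadherins that bind each other between the cells. Inside the cell, plakoglobin (Jup) and plakophilins (Pkp) hold the cadherin tails and desmoplakin (Dsp), which grips the keratins. Dsg2 and Dsc2 are the forms found in simple epithelia as well as stratified ones, Dsg3 and Dsc3 are typical of the basal layers of stratified epithelium, and Dsg1 and Dsc1 of its upper layers. Perp is a tetraspan membrane protein that p63 activates and that stratified epithelia need for stable desmosomes. Sox2 is a transcription factor of the oesophagus and proximal airway, and Nkx2-1 is the factor that sets lung identity.

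The 3 lists differed in length and depth. The wildtype list held 552 summits, the ectopic Sox2 list 229 and the list for Nkx2-1 deletion 2589. The mean ChIP coverage implied by the listed values was 0.963, 0.764 and 1.45 fragments per position, and the depth with Nkx2-1 deletion was 1.90 times that with ectopic Sox2 and 1.51 times that of wildtype. The median number of fragments per summit was 24, 23.5 and 38 in the same order.

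With Nkx2-1 deletion, 7 of the 10 desmosome genes had a Sox2 summit within 50 kb: Dsg2, Dsg3, Dsc1, Dsc2, Dsc3, Pkp1 and Perp. Of all protein-coding genes, 13.1% had one in that list. With ectopic Sox2 alone, 1 desmosome gene, Dsc1, had a summit, where 1.53% of all genes did. In wildtype 2 had one, Dsg3 and Perp, where 2.85% of all genes did. Dsg1a, Dsp and Jup had no summit within 50 kb in any of the 3 lists, as was the case for 85.3% of all genes. The desmosome genes were longer than the usual gene, with a median span of 31.9 kb against 17.2 kb, but among the 7833 genes with spans between the shortest and the longest of the 10 the share near a summit was 12.7% in the list for Nkx2-1 deletion, 1.37% in the ectopic Sox2 list and 2.43% in the wildtype list.

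**Figure D1:**
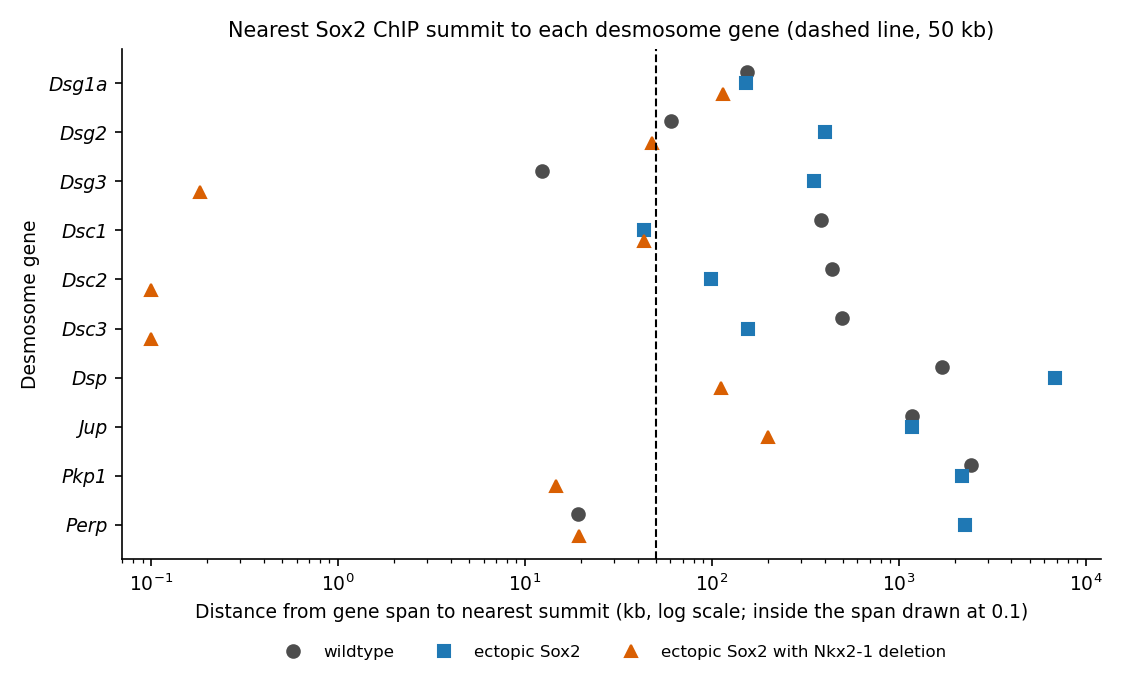
Distance from each desmosome gene's span to its nearest summit, in kb on a log axis, with 1 marker per library (circles wildtype, squares ectopic Sox2, triangles ectopic Sox2 with Nkx2-1 deletion); summits inside a span are drawn at 0.1 kb. The triangles of 7 genes lie left of the dashed 50 kb line, against 2 circles and 1 square.

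The genes are not independent counts, because 6 of the 10 lie side by side on chromosome 18. The 7 genes near a summit with Nkx2-1 deletion rested on 10 separate summits in 9 regions, of which 6 summits lay on chromosome 18 and 4 were near more than 1 of the genes. The wildtype genes rested on 2 summits and the ectopic Sox2 gene on 1. The window's limit fell close to several of these. Just inside it were the summit 48.0 kb from Dsg2 and one 48.8 kb from Dsc1, both with Nkx2-1 deletion, and just outside it a summit 52.9 kb from Dsg3 in the same list and one 60.1 kb from Dsg2 in wildtype.

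The desmosomal cadherin cluster spans Dsc3, Dsc2, Dsc1, Dsg1c, Dsg1a, Dsg1b, Dsg4, Dsg3 and Dsg2, in the order of their coordinates. Taken from 50 kb below Dsc3 to 50 kb above Dsg2 (mm10 chromosome 18, 19910930 to 20654526, 743.6 kb), it held 7 summits with Nkx2-1 deletion and 1 each in the other lists. The 7 summits were a density of 9.41 per Mb (exact Poisson 95% interval 3.78 to 19.4), against 0.949 per Mb over the rest of the genome and 1.14 per Mb over the rest of chromosome 18 in that list. The single summits of the other lists were a density of 1.34 per Mb (0.0340 to 7.49), beside 0.202 per Mb elsewhere in wildtype and 0.0838 per Mb with ectopic Sox2. Of 3649 windows of the same width laid end to end along the genome, 0.438% held 7 or more summits with Nkx2-1 deletion. At least 1 summit stood in 12.4% of windows in wildtype and in 5.86% with ectopic Sox2. Intervals here and below cover counting error only.

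**Figure D2:**
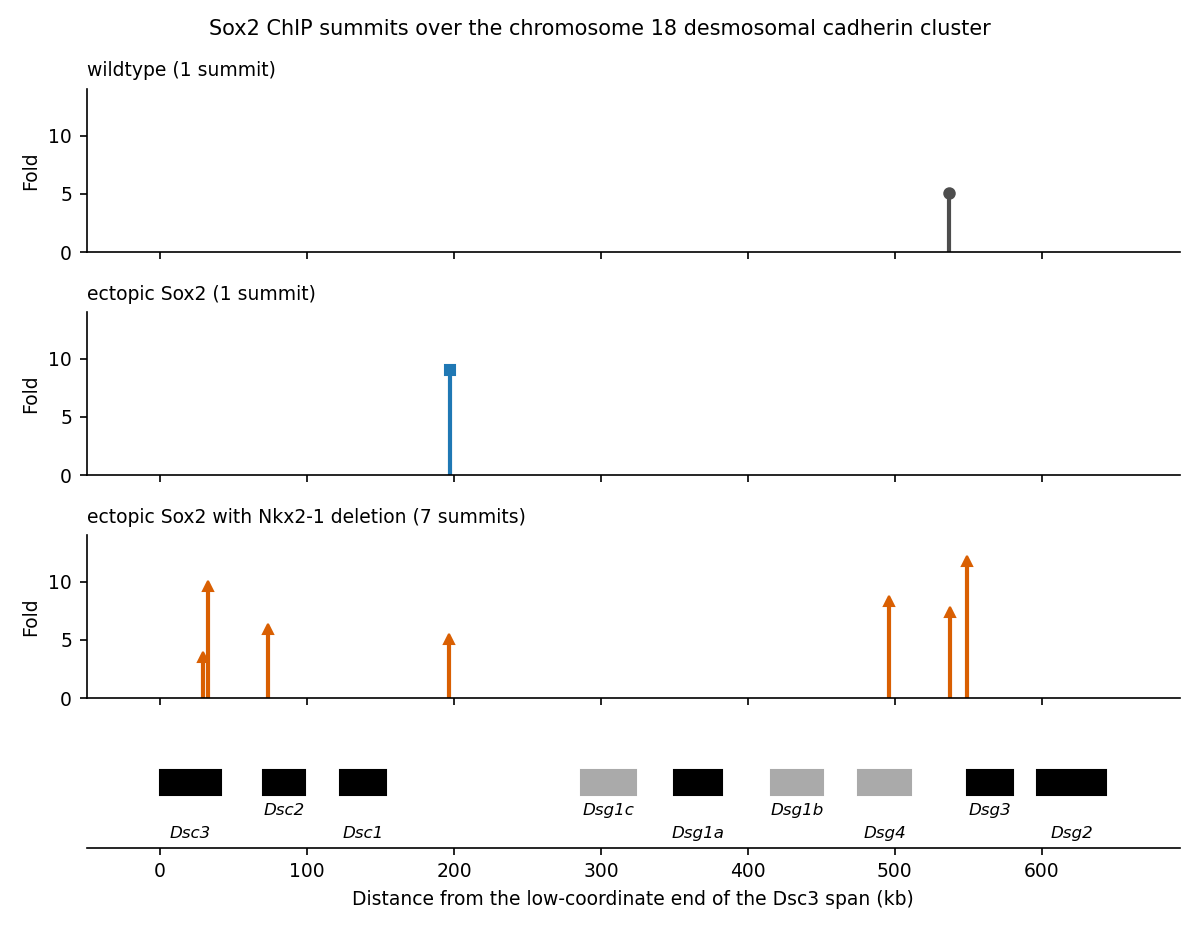
Summits over the chromosome 18 cluster in each library, drawn at their distance in kb from the low-coordinate end of the Dsc3 span and with a height equal to the authors' fold enrichment; boxes below are gene spans, black for the genes described and grey for the other desmogleins. With Nkx2-1 deletion 4 of the 7 summits fall at or next to the desmocollins and 3 at Dsg4 and Dsg3, and the stretch that holds Dsg1c, Dsg1a and Dsg1b has none in any list.

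The strongest desmosome summit stood beside Dsg3, the desmoglein of the basal layers (chromosome 18, 20510274 to 20541310). With Nkx2-1 deletion its summit lay 183 bp below the low-coordinate end of the gene, in the region 20509958 to 20510255. The authors' caller gave it a fold of 11.8 and a −log10 q of 18.1, which ranked 61st among 2589. It rested on 59 fragments (interval 44.9 to 76.1), or 40.6 times the mean coverage of the library. The annotation used gives no strand for this gene. Desmogleins and desmocollins are known to be transcribed away from each other, outward from the middle of the cluster, which as background places the start of Dsg3 at that end.

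A further Dsg3 summit with Nkx2-1 deletion lay 11.7 kb from the gene, at 20498492 to 20498720. It had a fold of 7.38, a −log10 q of 8.12 and 36 fragments (25.2 to 49.8). The wildtype list had its 1 cluster summit in the same flank, 12.3 kb from Dsg3, at 20497883 to 20498085, with a fold of 5.06, a −log10 q of 5.38 and 26 fragments (17.0 to 38.1). These regions did not overlap, and their summits were 615 bp apart. Divided by the mean coverage of each library, the fragments were 24.8 with Nkx2-1 deletion and 27.0 in wildtype, with control background not subtracted. That background was 1.95 and 4.20 times the mean coverage in the same order. The wildtype list had nothing at the stronger site beside the gene, and its summit was thus 12.3 kb from Dsg3 while the nearest with Nkx2-1 deletion was 183 bp away.

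Dsg2, the desmoglein shared by simple epithelia (chromosome 18, 20558074 to 20604526), had no summit of its own. It counted as near only through the summit beside Dsg3, 48.0 kb away. Dsg1a, a desmoglein of the upper layers (20310873 to 20343353), was the farthest of the 6 cadherin genes from a summit with Nkx2-1 deletion, at 114 kb. Its nearest summits with ectopic Sox2 and in wildtype lay 153 kb and 155 kb away.

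Among the desmocollins, Dsc3, the basal form (chromosome 18, 19960930 to 20002410), had 2 summits inside the gene with Nkx2-1 deletion. The stronger, at 19993153 to 19993484, had a fold of 9.60, a −log10 q of 12.5 (rank 249) and 43 fragments (31.1 to 57.9), and lay 9.03 kb inside the high-coordinate end of the gene. The weaker, 3.29 kb away at 19989970 to 19990171, had a fold of 3.53, a −log10 q of 1.99 (rank 2464) and 31 fragments (21.1 to 44.0). The stronger site thus fell in the top 9.62% of the list and the weaker among its last entries. The nearest summit to Dsc3 was 155 kb away with ectopic Sox2 and 496 kb away in wildtype.

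Dsc2, the desmocollin of simple epithelia (20030633 to 20059554), had 1 summit inside the gene with Nkx2-1 deletion, at 20034541 to 20034740, 4.00 kb from its low-coordinate end. Its fold was 5.96, its −log10 q 4.00 (rank 1907) and its 23 fragments (14.6 to 34.5) were the fewest of the 10 desmosome summits in that list. Both Dsc3 summits also lay within 50 kb of Dsc2, at 37.3 kb and 40.5 kb. Dsc2 and Dsc3 thus had the same 3 summits within 50 kb, where 0.726% of all genes had at least 3 in that list. A summit inside the span was found for 2 of the 10 desmosome genes, Dsc2 and Dsc3, where 4.42% of all genes had one in that list. Neither share was matched for span, and the desmosome genes were longer (median 31.9 kb against 17.2 kb for all genes). A longer span has more room for a summit inside it. Exons and introns were not told apart, since the annotation used gives spans only.

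The site above Dsc1, a desmocollin of the upper layers (20083471 to 20114773), was found with ectopic Sox2 both with and without Nkx2-1 deletion. It lay 43.1 kb from the gene in the stretch between the desmocollins and the desmogleins, and the summits of the 2 lists were 23 bp apart. With ectopic Sox2 alone the region 20157780 to 20158012 had a fold of 9.0, a −log10 q of 8.70 (rank 54 of 229) and 21 fragments (13 to 32.1). With Nkx2-1 deletion the region 20157753 to 20158006 had a fold of 5.11, a −log10 q of 7.44 (rank 838) and 58 fragments (44.0 to 75).

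The fold and the fragments at the Dsc1 site ordered these libraries in opposite ways. Scaled by depth, the Nkx2-1 deleted library had 1.45 times the fragments of the ectopic Sox2 library (exact conditional binomial 95% interval 0.869 to 2.52), an interval that includes 1. Over the 119 summits with Nkx2-1 deletion in regions found in both lists the same ratio had a median of 1.27 and quartiles of 0.995 and 1.55, which enclose the Dsc1 value. The control background behind the fold was 9.45 fragments with Nkx2-1 deletion and 0.940 with ectopic Sox2, or 6.51 and 1.23 times the mean coverage. The authors' folds at this site are therefore not a comparison of binding between the libraries.

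Perp (chromosome 10, 18845071 to 18857073) had a site above the gene in wildtype, 19.2 kb away, and with Nkx2-1 deletion, 19.4 kb away. With ectopic Sox2 the nearest summit was 2255 kb away. It stood near the bottom of both lists. In wildtype the region 18876226 to 18876432 had a fold of 4.33, a −log10 q of 2.23 (rank 515 of 552) and 15 fragments (8.40 to 24.7). With Nkx2-1 deletion the region 18876334 to 18876605 had 2 summits 101 bp apart, with the same fold of 3.08, the same −log10 q of 1.38 (rank 2576 of 2589) and 34 fragments each (23.5 to 47.5). The summit nearest to the wildtype one was 136 bp from it. The depth-scaled ratio of Nkx2-1 deletion to wildtype was 1.5 (0.797 to 2.97), an interval that includes 1, beside a median of 1.37 and quartiles of 1.09 and 1.69 over the 273 summits with Nkx2-1 deletion in regions found in both lists.

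Of the plaque genes, only Pkp1 had a summit within 50 kb in these lists, and only with Nkx2-1 deletion. Pkp1 encodes plakophilin 1, a plaque protein of stratified epithelia, and spans 135871394 to 135919207 on chromosome 1. One summit lay 14.7 kb above it, at 135933774 to 135933975, with 65 fragments (50.2 to 82.8), the most at any of the desmosome summits. Its fold was 2.85 and its −log10 q 2.89 (rank 2298), the lowest fold of the 10, beside a control background of 21.3 fragments. The other, 18.8 kb below the gene at 135852442 to 135852683, had a fold of 5.41, a −log10 q of 5.26 and 36 fragments (25.2 to 49.8), and lay 291 bp from Tnnt2, which encodes cardiac troponin T. Pkp1 was thus not the closest gene to that summit.

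Dsp, which encodes the keratin-binding desmoplakin (chromosome 13, 38151294 to 38198577), had its nearest summit 112 kb away with Nkx2-1 deletion, 1706 kb away in wildtype and 6824 kb away with ectopic Sox2. For Jup, which encodes plakoglobin (chromosome 11, 100368856 to 100397839), the nearest summits were 199.7 kb, 1169 kb and 1169 kb away in the same order. With Nkx2-1 deletion Jup was the farthest of the 10 genes from a summit. A RefSeq table of promoters (GRCm38.p6, 250 bases before to 50 after the start) held a sequence for 2 of the 10 genes, Dsp and Jup. Neither held CATTGT or CTTTGT, the core letters of Sox motifs, on either strand, where 28.6% of the 32851 promoters held at least one of them. The sequences under the listed summits were not used here.

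**Figure D3:**
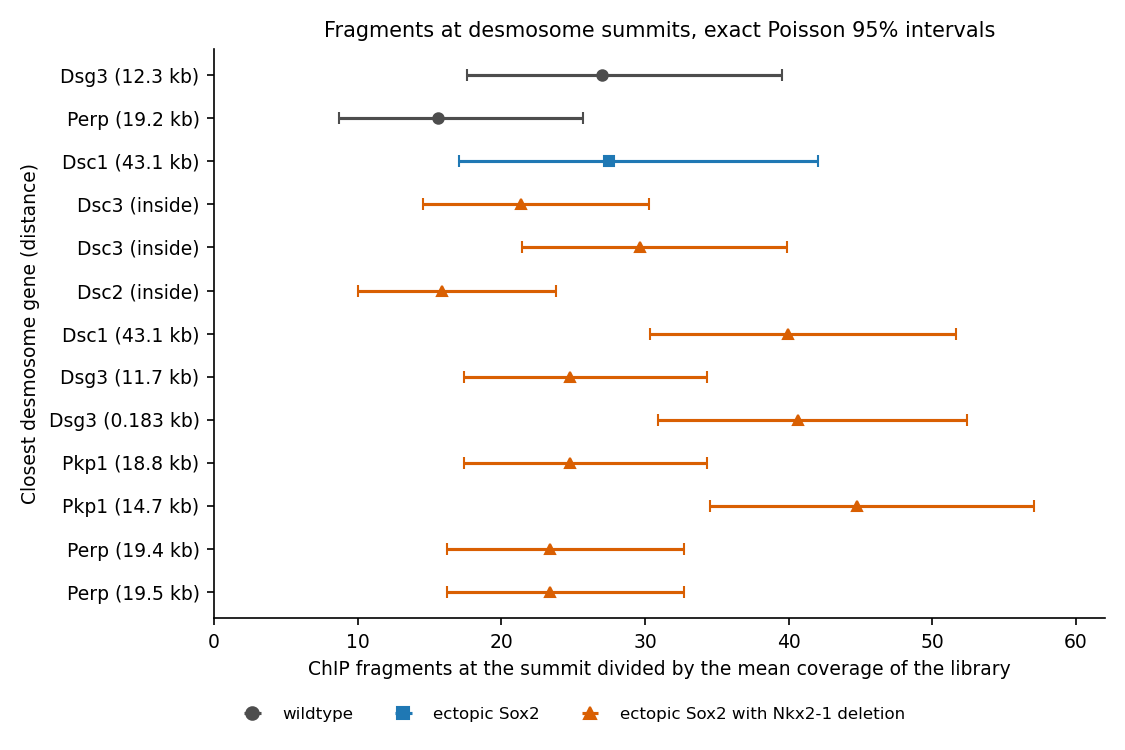
ChIP fragments at each of the 13 summits near a desmosome gene, divided by the mean coverage of the library, with exact Poisson 95% intervals; each row is named by the closest desmosome gene and its distance, and marker shapes give the library. Values run from 15.6 to 44.8, and the Dsc1 site's intervals with and without Nkx2-1 deletion overlap.

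Within their own lists the desmosome summits were of mixed strength. With Nkx2-1 deletion their −log10 q ran from 1.38 to 18.1 with a median of 4.63, against a list median of 5.97, and 4 of the 10 lay above the list median: the sites beside Dsg3 and inside Dsc3, the second Dsg3 site and the Dsc1 site. Their median of 36 fragments was close to the list median of 38. Of the wildtype summits none lay above the list median of 5.64, and the ectopic Sox2 summit lay above that of its list, 6.04. Counting only summits with −log10 q of at least 5, 6 of the 10 genes stayed near a summit with Nkx2-1 deletion, where 8.83% of all genes did, and Perp was the gene that did not. Dsg2 stayed only through the summit beside Dsg3, Dsc2 only through the stronger Dsc3 site and Pkp1 only through the site beside Tnnt2. With ectopic Sox2 Dsc1 stayed, where 1.18% of all genes did, and in wildtype Dsg3 stayed, where 1.88% did.

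**Figure D4:**
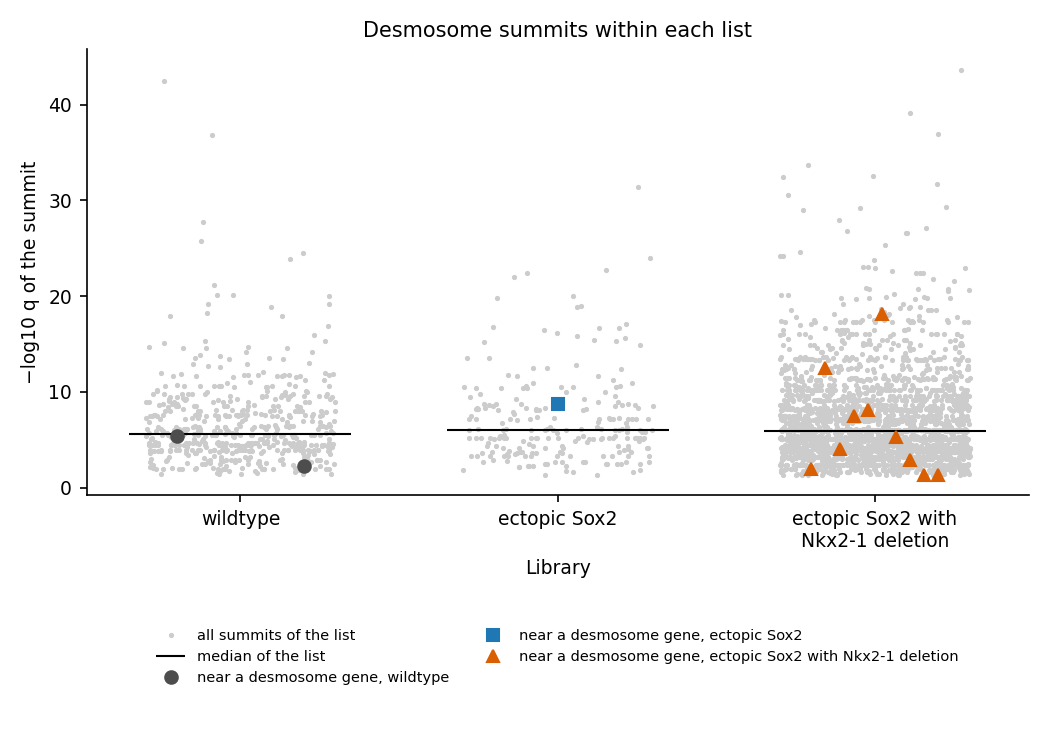
−log10 q of every summit in each list (grey dots, spread sideways for visibility), the list's median (line) and the summits near a desmosome gene (coloured markers). The desmosome summits with Nkx2-1 deletion run from 1.38 to 18.1 around a list median of 5.97.

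Of the 10 with Nkx2-1 deletion, 3 stood in a region that overlapped one of another list, the Dsc1 summit and the Perp pair, where 12.7% of all summits in that list did. The wildtype Perp summit and the ectopic Sox2 Dsc1 summit were the other side of these overlaps, and no desmosome region was in all 3 lists. Of all summits, 56.3% in wildtype and 68.6% with ectopic Sox2 overlapped a region of another list. Of the 7 genes near a summit with Nkx2-1 deletion, 6 had none with ectopic Sox2, or 85.7%, and among all 2873 such genes the share was 93.3%. In neither other list was a summit found for 4 of the 7, or 57.1%, against 83.6% of all such genes.

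Scaled to the depth of the ectopic Sox2 library, the 10 summits with Nkx2-1 deletion would have had 12.1 to 34.2 fragments, where the weakest summit of that list had 10. With the control background scaled alike, 6 of the 10 would reach the lowest −log10 p in that list, 5.47. These were the Dsg3 pair, the stronger Dsc3 site, the Dsc2 site, the Dsc1 site and the Pkp1 site beside Tnnt2. Only the Dsc1 site was listed there. Scaled to wildtype depth the expected fragments were 15.3 to 43.1, and 8 of the 10 would reach that list's lowest −log10 p of 5.27, all but the Perp pair. None of the 8 was in a listed wildtype region, and the Perp region was. These expectations assume that coverage and control background at each site follow depth alone, and the other library's own control was not used. The expected −log10 p also used the caller's scale for the other list, which differs between the lists. Scaled to wildtype, each of the 10 had a higher expected −log10 p than its listed value, despite fewer fragments. At the summit beside Dsg3 it was 27.4, against 23.7 in the list for Nkx2-1 deletion. The counts of 6 and 8 thus reflect this scale as well as depth. The 10 summits were taken from the list in which they passed the caller, so their fragments and these expectations can run too high. The expectations describe the lists and are no test, and whether depth accounts for the differences between the lists was not tested.

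Other junction genes were counted in the same way. A list of 10 further desmosome and plaque genes held Dsg1b, Dsg1c, Dsg4, Pkp2, Pkp3, Pkp4, Ppl, Evpl, Cdsn and Kazn. With Nkx2-1 deletion 4 of them were within 50 kb of a summit, in wildtype 1 and with ectopic Sox2 0. Of all protein-coding genes, 13.1%, 2.85% and 1.53% were, in the same order. Dsg4, a desmoglein of the hair follicle, held a summit inside the gene at 20457265 to 20457508 on chromosome 18 with a fold of 8.35 and 45 fragments, and Dsg1b counted through the same summit, 45.2 kb away. Dsg4 was also the wildtype gene, through the summit in the Dsg3 flank. Both Dsg3 summits with Nkx2-1 deletion were within 50 kb of Dsg4 too, at 26.8 kb and 38.3 kb. On chromosome 18 this list and the desmosome genes thus share summits and are not separate counts. Ppl, which encodes the plaque protein periplakin, had a summit 13.2 kb from the gene with a fold of 8.00 and 43 fragments. Pkp4, a plakophilin relative found at several kinds of junction, had 2 inside its 194 kb span, with folds of 6.97 and 7.72.

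Of 10 adherens junction genes, 4 had a summit with Nkx2-1 deletion, 3 in wildtype and 0 with ectopic Sox2. The shares of all protein-coding genes were 13.1%, 2.85% and 1.53% in the same order. Cdh1, which encodes E-cadherin, had a summit inside the gene both in wildtype (fold 4.94, 32 fragments) and with Nkx2-1 deletion (fold 3.34, 45 fragments), in regions that did not overlap. Ctnnd1, which encodes p120 catenin, had overlapping regions in both lists, 46.4 kb from the gene in wildtype and 46.5 kb with Nkx2-1 deletion, and a summit inside the gene with Nkx2-1 deletion (fold 4.12, 56 fragments). The remaining genes were Vcl, which encodes vinculin, with 3 summits inside the gene with Nkx2-1 deletion, and Ctnna2, a neural catenin with a span of 1098 kb, with 6 summits with Nkx2-1 deletion and 2 in wildtype. These genes were longer than the desmosome genes, with a median span of 71.1 kb. Of 11 tight junction genes, 2 had a summit with Nkx2-1 deletion (Tjp1 and F11r), 1 in wildtype (Tjp1) and 0 with ectopic Sox2. The 2 genes with Nkx2-1 deletion were 18.2% of that list, near the 13.1% of all protein-coding genes. Tjp1, which encodes the scaffold protein ZO-1, had the wildtype summit with a fold of 12.7 (rank 9) and 36 fragments, and different sites with folds of 5.58 and 5.65 with Nkx2-1 deletion. The shares of these lists were not tested against those of the desmosome genes.

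**Figure D5:**
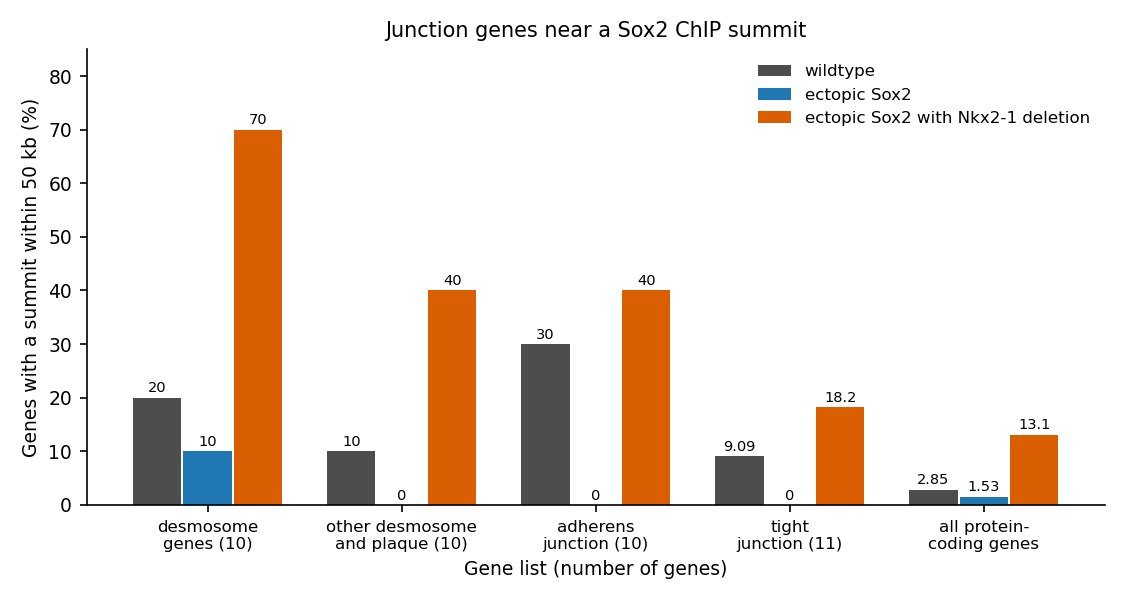
Percentage of genes with a summit within 50 kb for the desmosome genes, 3 other junction lists and all protein-coding genes, with 1 bar per library and the value above it. With Nkx2-1 deletion the bar for the desmosome genes stands at 70% and that for all protein-coding genes at 13.1%.

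Dsg3, Dsc1, Dsc2, Dsc3 and Perp each had 3 summits over the 3 lists, the most among the 10, and Dsg3 had the highest −log10 q of these. Its pattern of 2 summits with Nkx2-1 deletion, 1 in wildtype and 0 with ectopic Sox2 was found at 54 other protein-coding genes that shared no summit with it. Those with a highest −log10 q nearest to the 18.1 of Dsg3 were Sbf2 (18.6), Rtl1 (17.5), E2f6 and Greb1 (16.5 each) and Tjp1 (20.1). The likeness is in counts over 3 libraries and the strongest summit in any list only. That summit was in wildtype for Tjp1 and with Nkx2-1 deletion for Dsg3, so the values mix lists. Whether E2f6 and Greb1 shared a summit was not checked.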

How the data were processed

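Sox2 ChIP-seq peak lists of 3 libraries, 1 per group, were used as the authors deposited them. Bowtie2 2.2.9, SAMtools 1.4, MACS2 2.1.1, HOMER 4.8.3 and the build mm10 are named in the submitters' processing notes. For the choice of control, the calling threshold and the handling of duplicates nothing is stated in the labels. Each deposited line holds a score, a fold ratio over the control background, −log10 p and −log10 q of a summit, all set by the authors' peak caller. These were used to describe and rank summits within a list. Positions are printed counting from 1.

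ChIP fragments were recovered from fold and −log10 p with the MACS2 formulas and a pseudocount of 1, as whole fragments within a tolerance of 0.001. A unique value was found for 99.8%, 99.6% and 99.4% of summits in wildtype, ectopic Sox2 and Nkx2-1 deletion, and for every summit near a desmosome gene. Depth is the lowest recovered background of a list, in fragments per position. Gene spans came from RefSeq GRCm38.p6, the build of mm10, and all 10 genes matched. Analyses used Python 3.11.15, scipy 1.17.1 and pandas 2.3.3.

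All 10 genes, the summits near them, other junction genes near a summit and the genes most like Dsg3 are named; Dsg3 was chosen among 5 genes tied for the most summits by its −log10 q, a step added later. The genes and lists were chosen with earlier results of these data known. One gene planned for the tight junction list is not reported here. Alternatives changed the gene window, the −log10 q, the use of summit or region, the overlap rule and the ratio's scaling.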

Additional observations from a re-analysis of the deposited data

How the results depend on the processing

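Of 35 recomputed values, 22 stayed within 1.5 times the reported count or inside the reported interval and 13 did not. Within 10 kb, the desmosome genes near a summit were 3 with Nkx2-1 deletion (Dsg3, Dsc2 and Dsc3, on 4 summits; 6.47% of all genes), 0 in wildtype (1.37% of all genes) and 0 with ectopic Sox2 (0.736%), each on 0 summits. Within 100 kb they were 7 with Nkx2-1 deletion (20.7% of all genes), 3 in wildtype (4.66%), where Dsg2 was added, and 2 with ectopic Sox2 (2.45%), where Dsc2 was added. With −log10 q of at least 5, the 5 remaining summits with Nkx2-1 deletion still served 6 genes, and wildtype kept 1 gene on 1 summit. Without summits in regions found in another list, an alternative chosen after seeing the data, the counts were 6 with Nkx2-1 deletion (12% of all genes), 1 in wildtype (1.27%) and 0 with ectopic Sox2 (0.603%). Letting any base of a region decide nearness changed no count. Of the 5 summits in regions shared between lists, 2 remained at a reciprocal overlap of 50%, those of the Dsc1 site. The depth-scaled ratios fell to 1.15 at Dsc1 and 1.1 at Perp when scaled by the median over shared regions, and to 1.27 and 1.30 with the control background subtracted, all inside the reported intervals. No paired analysis was possible because each group has 1 library. For the same reason no library could be left out. A site below the calling threshold is not listed, so absence from a list sets no limit on its fragments.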

Other observations

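The order of the desmosome sites depended on the measure. By fold with Nkx2-1 deletion the leading site was beside Dsg3 (11.8) and the last was the Pkp1 site 14.7 kb from the gene (2.85), while by fragments that Pkp1 site led with 65 and the Dsg3 site had 59. The Dsc1 site had 58 fragments, 1 fewer than the Dsg3 site, and a fold of 5.11. The recovered control background in the caller's own units was a whole multiple of 0.2, within 0.01 of a step, at all 13 summits, and ran from 0.6 at the ectopic Sox2 Dsc1 summit to 9 at that Pkp1 site. It was 4 at the Dsc1 and Perp sites with Nkx2-1 deletion. The intervals printed for fragments do not include the error of this background.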
